A study of Mus musculus with 13 samples.

Results

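The genes of cyclic nucleotide signaling were examined in excitatory neurons of the mouse claustrum: the adenylyl and guanylyl cyclases (Adcy and Gucy), the subunits of cAMP-dependent protein kinase (PKA, Prkac and Prkar), the cGMP-dependent kinases (Prkg), the phosphodiesterases (Pde) and the phosphatase inhibitors Ppp1r1a and Ppp1r1b. Members were taken by symbol, which gave 51 of the 23427 genes in the count tables, 48 of them listed in both tables. The rule itself uses symbols and no measured value, but members were chosen with earlier results of these data known. Ppp1r1a and Ppp1r1b were added by name, and the tables name genes by symbol only. Single cells had been picked by hand from claustral microdissections of 4 mature male C57BL/6 mice, a wild-type inbred strain, and 1011 of 1112 cells were kept as excitatory neurons because both Snap25 and Slc17a7 had 1 or more counts. In 1 animal, here the blindly sampled mouse, retrograde rAAV2-retro-CAG-GFP from the anterior cingulate cortex was used to find the tissue, while cells were taken blindly, and its 238 kept cells carry no projection label. In projection mice 1, 2 and 3, green retrobeads (fluorescent microspheres carried back to the cell body) had been placed in the lateral entorhinal cortex (LEC) and red ones in the retrosplenial cortex (RSC), and bead label guided the picking of part of the cells. Kept cells were labelled LEC (80, 76 and 130 in mice 1 to 3), RSC (64, 70 and 113) or Unlabeled (80, 74 and 86). An Unlabeled cell has no known target, and a bead marks only the place of injection.

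Cells were split by Synpr, a marker of claustrum core neurons, at 200 CPM (the gene's counts scaled to a common total per cell). The Synpr-high class held 113, 88, 88 and 149 cells of the blindly sampled mouse and of projection mice 1, 2 and 3, and the Synpr-low class 125, 136, 132 and 180. Few cells lay near the limit, with 13 cells from 100 to 200 CPM and 8 from 200 to 400 CPM, while 397 cells had no Synpr count. Synpr-low cells were split again by the summed CPM of the deep-layer cortical markers Ctgf, Sla, Foxp2, Rprm, Syt6, Fezf2 and Tle4 at 200, which gave 31, 37, 24 and 29 marker-high cells. Counts were summed over the cells of a mouse and class, so that the mouse is the replicate, and levels of sums are given as CPM scaled by edgeR's TMM factors. Sums cannot tell fewer cells with a transcript from less of it in each cell.

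The classes were checked against markers. Summed levels of Snap25 and Slc17a7 were 3859 to 6114 CPM in Synpr-high and 3098 to 5523 CPM in Synpr-low sums, and the core list, which includes Synpr, 6145 to 6493 CPM against 329 to 722 CPM. The shell list of Slc30a3, Nnat and Spon1 gave 51.4 to 103 CPM against 667 to 1809 CPM. Of the other cell types, astrocyte, microglial and endothelial lists stayed at or under 9.1 CPM in both classes, oligodendrocyte genes reached 27.4 to 336 CPM and 50.5 to 576 CPM, and inhibitory genes, Npy among them, 1.25 to 504 CPM and 127 to 1072 CPM. Kept cells had a median of 26023 counts in the blindly sampled mouse and 138535 to 154261.5 in the projection mice (range over all cells, 434 to 495406). The plates were sequenced in pools that differed in flow cell, read length and number of plates. Which plates went into which pool is not given in the sources used here. The plates of the blindly sampled mouse may have formed a pool of their own, which was not tested. A plate held cells of 1 mouse and, except plate 12 of projection mouse 3, of 1 projection label. Plate and label therefore cannot be told apart. Both Synpr classes were present within plates, but unevenly in the projection mice. In projection mouse 3, RSC plate 6 held 76 Synpr-high cells of 79, and LEC plate 7 held 6 of 86. In plate 1 of the blindly sampled mouse, 39 of 79 cells were Synpr-high. The class sums of the projection mice were thus not balanced by plate. Barcodes were reused between plates, and 430 kept cells carry one already carried by a kept cell of another plate of the same table.

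Cyclic AMP is made from ATP by adenylyl cyclases, most of which sit in the membrane and answer to stimulatory or inhibitory G proteins, and it releases the catalytic subunits of PKA from the regulatory subunits. Nitric oxide raises cyclic GMP through a soluble guanylyl cyclase of an alpha and a beta subunit, and phosphodiesterases, each with its own preference, degrade both messengers. Phosphorylation by PKA turns Ppp1r1a (inhibitor 1) and its paralogue Ppp1r1b (DARPP-32) into inhibitors of protein phosphatase 1, and Ppp1r1b is best known from neurons that receive dopamine, above all those of the striatum.

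Promoters of members that differed between the classes are shown first, because the transcription factor CREB, a target of PKA, binds the cAMP response element (CRE). RefSeq promoters (GRCm38.p6) were matched to 38 of the 51 members, among them 7 of the 9 that differed between Synpr classes, and the 250 bases before the start were searched on both strands for the full element TGACGTCA and for the shorter TGACG, which is contained in it. Only 1 promoter per gene symbol was searched, so other starts of a gene, if any, are not covered. No matched member held the full element, against 1.62% of 27025 promoters, and 10 of 38 (26.3%) held the shorter one, against 17.9%. The first 2 sequences belong to adenylyl cyclases that differed in opposite directions and the third to the phosphodiesterase Pde4b. Capitals mark TGACG or its reverse complement, and a match describes only these letters.
Adcy2 (chr13:68999542-68999791, minus strand): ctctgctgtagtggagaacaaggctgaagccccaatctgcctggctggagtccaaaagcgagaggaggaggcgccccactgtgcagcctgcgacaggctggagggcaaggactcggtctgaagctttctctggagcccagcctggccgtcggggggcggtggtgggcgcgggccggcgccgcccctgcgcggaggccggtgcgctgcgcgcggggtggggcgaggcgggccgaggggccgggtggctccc
Adcy9 (chr16:4420499-4420748, minus strand): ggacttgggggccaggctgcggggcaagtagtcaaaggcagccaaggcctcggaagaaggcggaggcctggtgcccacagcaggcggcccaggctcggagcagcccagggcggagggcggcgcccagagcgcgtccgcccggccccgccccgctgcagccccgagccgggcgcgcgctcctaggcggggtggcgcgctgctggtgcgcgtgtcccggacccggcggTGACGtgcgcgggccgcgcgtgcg
Pde4b (chr4:102421305-102421554, plus strand): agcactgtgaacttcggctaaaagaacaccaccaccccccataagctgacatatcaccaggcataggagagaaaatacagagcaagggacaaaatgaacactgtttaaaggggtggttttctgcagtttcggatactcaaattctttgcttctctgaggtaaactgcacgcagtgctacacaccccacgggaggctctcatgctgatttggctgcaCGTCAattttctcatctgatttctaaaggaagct
The Adcy9 and Pde4b windows hold 1 match each and the Adcy2 window none. The shorter element was thus present at a member lower and at a member higher in Synpr-high cells. The windows of Adcy1, Gucy1a3, Pde4a, Prkar1b and Pde1a held neither form.

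Synpr-high and Synpr-low cells were then compared to ask which enzymes of the pathway differ between core neurons and the other excitatory neurons. In Synpr-high cells, Ppp1r1a, the cyclase Adcy2, the guanylyl cyclase subunit Gucy1a3, the phosphodiesterase Pde4b and the PKA regulatory subunit Prkar1b were higher. Ppp1r1b, the cyclases Adcy9 and Adcy1 and the phosphodiesterase Pde4a were lower. Of the 40 members with enough counts for the test, 9 passed (22.5%), against 8.82% of all 13641 genes tested by edgeR's quasi-likelihood test, Benjamini-Hochberg adjusted at 0.05. The 5 higher members compare with 4.48% of all genes in that direction and the 4 lower with 4.34%. Ppp1r1a and Ppp1r1b, which were added to the members by name, are among the 9. The median log2 change was 0.05 over the tested members and -0.000598 over all genes. The 11 members outside the test had 1 to 150 counts in all kept cells, the fewest being the pseudogene Prkaca-ps1, Gucy2f and Pde6b with 1 count each.

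**Figure D1:**
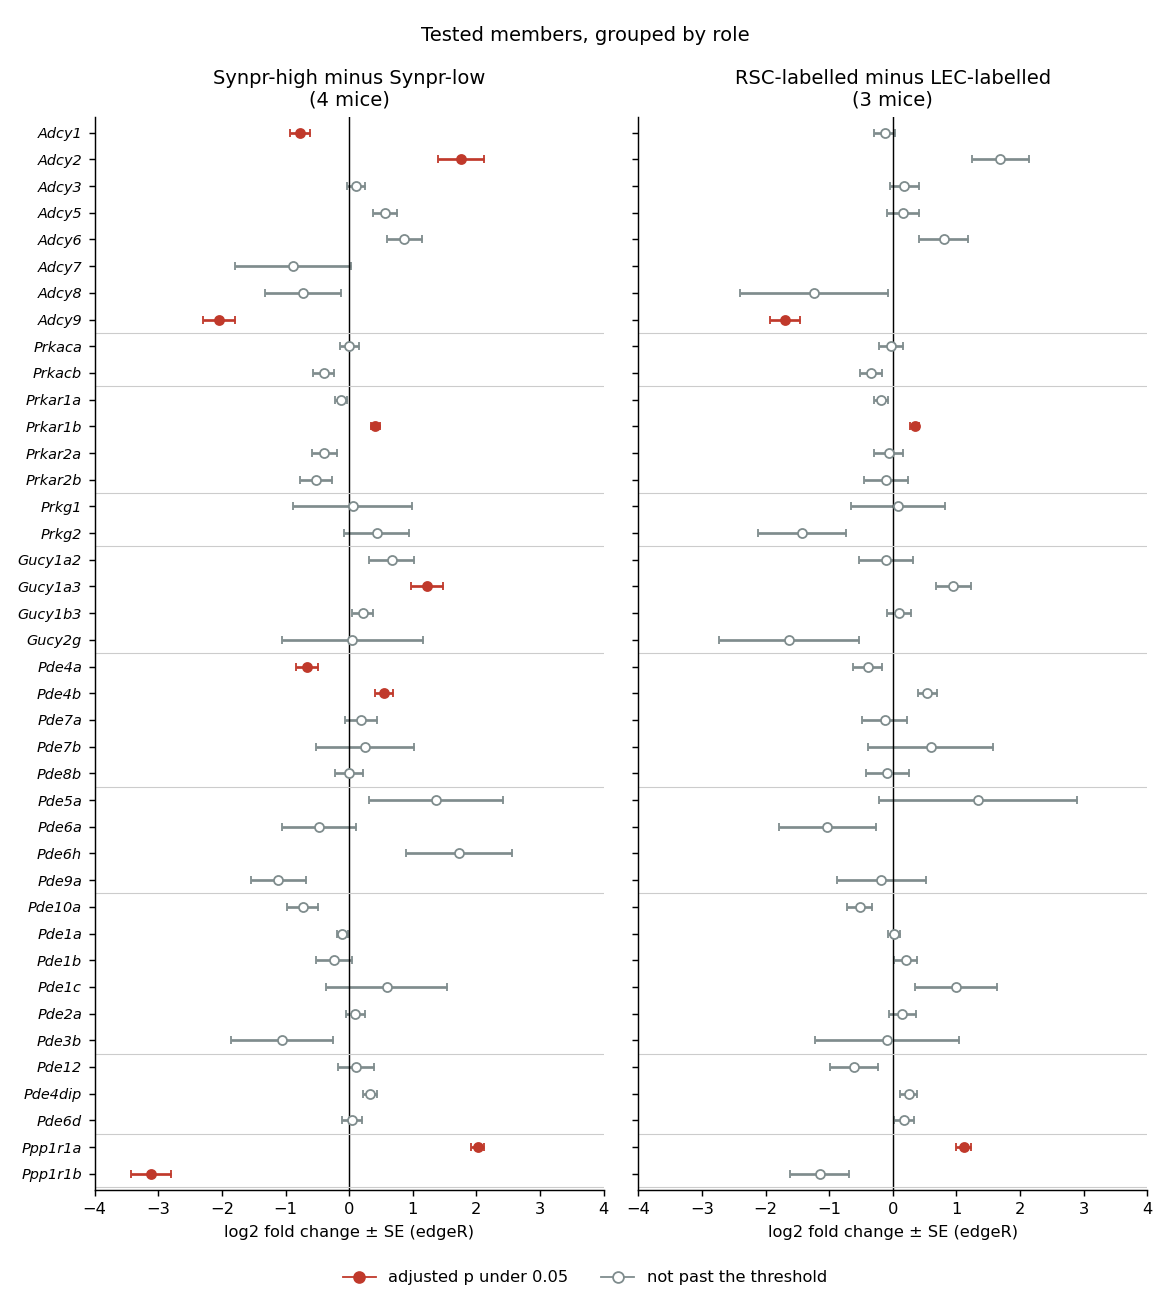
Log2 fold change ± SE of each tested member, by role from cyclases at the top to phosphatase inhibitors at the bottom, for Synpr-high minus Synpr-low sums (left, 4 mice) and RSC minus LEC sums (right, 3 mice). Filled red points passed the threshold, 9 members on the left and 3 on the right, and open grey points did not.

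The membrane adenylyl cyclases moved in both directions: of 8 tested, 1 passed as higher and 2 as lower. Adcy9, a broadly expressed cyclase, had 15.9, 13.4, 22.2 and 9.76 CPM in the Synpr-high sums of the blindly sampled mouse and projection mice 1 to 3, and 54.7, 56.1, 66.1 and 75.1 CPM in their Synpr-low sums. The groups did not overlap, and in each mouse the Synpr-low sum was the higher one. The log2 change was -2.05 ± 0.25 (SE, n = 4 mice per group, adjusted p = 0.000683, edgeR's quasi-likelihood test, Benjamini-Hochberg adjusted). Adcy2, which G protein beta-gamma subunits can stimulate, went the other way, with 93.8, 102, 75.3 and 103 CPM in Synpr-high and 44.6, 36.5, 19.3 and 11.6 CPM in Synpr-low sums. Here too the groups did not overlap, and projection mouse 3 had both the highest Synpr-high and the lowest Synpr-low sum (1.76 ± 0.36 log2 units, adjusted p = 0.013, edgeR). Adcy1, the calcium- and calmodulin-stimulated cyclase, was present in both classes at 105, 143, 129 and 150.0 CPM and 233, 279, 190.4 and 203 CPM. It was lower in Synpr-high sums of all 4 mice (-0.78 ± 0.16, adjusted p = 0.011, edgeR). Adcy5 and Adcy6, the pair of cyclases inhibited by calcium, were named after their values were seen. They had log2 changes of 0.57 ± 0.19 and 0.87 ± 0.28 with the Synpr-high sum higher in 4 of 4 mice, and neither passed (adjusted p = 0.106 and 0.0878, edgeR). The other membrane cyclases, Adcy3, Adcy7 and Adcy8, did not pass either, and soluble Adcy10 had 88 counts in 18 of the kept cells.

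**Figure D2:**
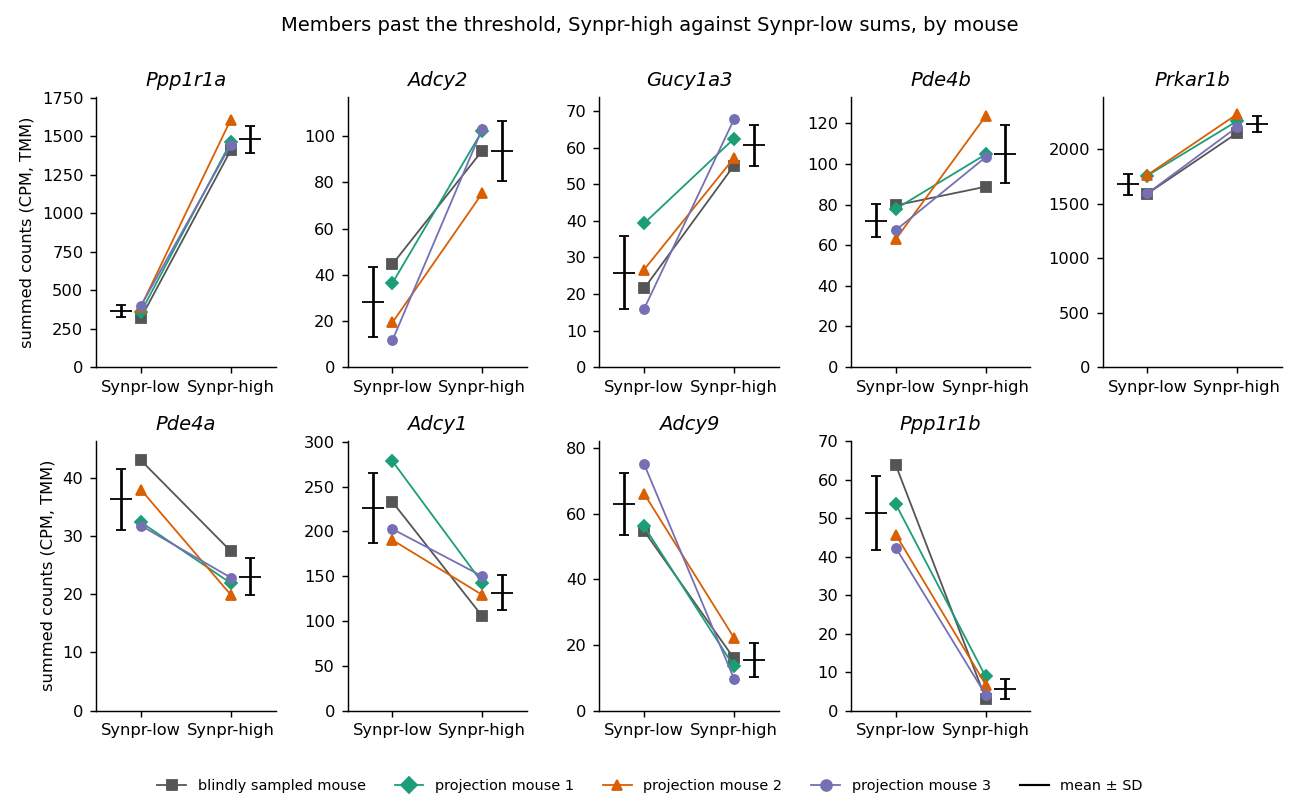
Levels (CPM, TMM-scaled; each axis starts at 0) of the 9 members past the threshold in Synpr-low and Synpr-high sums. Lines join the sums of 1 mouse and black marks give mean ± SD over 4 mice. In each panel the 4 lines run the same way, up for Ppp1r1a, Adcy2, Gucy1a3, Pde4b and Prkar1b and down for Pde4a, Adcy1, Adcy9 and Ppp1r1b.

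Of the PKA subunits, only Prkar1b passed, among 2 catalytic and 4 regulatory genes tested. Prkar1b, a regulatory subunit found mainly in neurons, had 2148, 2258, 2321 and 2203 CPM in Synpr-high and 1591, 1757, 1763 and 1593 CPM in Synpr-low sums. The change was small and even across mice (0.41 ± 0.07 log2 units, adjusted p = 0.00484, edgeR). Prkar1a, the other type I regulatory gene, stood at 465 ± 28.6 and 509 ± 43.5 CPM (SD, n = 4) with a 95% interval of the log2 change from -0.34 to 0.08. For the catalytic subunits, Prkaca gave 41.7 ± 5.54 and 41.5 ± 1.59 CPM, with an interval from -0.32 to 0.33. Prkacb was 271 ± 44.8 CPM in Synpr-high and 358 ± 79.97 CPM in Synpr-low sums, lower in Synpr-high sums of 4 of 4 mice, while the sums of different mice overlapped. It passed with the mouse as a block (log2 change -0.39, adjusted p = 0.00983, against 0.216 without, edgeR), and in 3 of 19 alternatives in all.

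On the cGMP side, the tested guanylyl cyclase genes gave 1 call of 4. Gucy1a3, an alpha subunit of the nitric oxide receptor, had 55.2, 62.5, 57.2 and 67.8 CPM in Synpr-high and 21.5, 39.4, 26.7 and 15.97 CPM in Synpr-low sums. The classes did not overlap and differed by 1.23 ± 0.25 log2 units (adjusted p = 0.0126, edgeR). Its partner, the beta subunit Gucy1b3, stood at 44.3 ± 5.65 and 38.2 ± 5.74 CPM (SD, n = 4) and did not pass, with an interval of the log2 change from -0.15 to 0.58. The kinases that cGMP activates were sparse, Prkg2 at 3.74 ± 0.918 and 2.69 ± 1.43 CPM and Prkg1 at 2.06 ± 1.43 and 1.997 ± 1.77 CPM. Intervals of their log2 changes ran from -0.71 to 1.57 and from -2.03 to 2.14, and both include a change of the size seen in Gucy1a3.

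Phosphodiesterases gave 2 calls, both in the cAMP-specific family. Pde4b had 88.8, 105, 124 and 103 CPM in Synpr-high and 79.7, 77.9, 63.004 and 67.4 CPM in Synpr-low sums, a log2 change of 0.55 ± 0.14 (adjusted p = 0.0382, edgeR). The lowest Synpr-high sum lay just above the highest Synpr-low sum, both from the blindly sampled mouse. Pde4a had 27.4, 21.9, 19.9 and 22.9 CPM against 43.03, 32.4, 37.98 and 31.8 CPM, a change of -0.66 ± 0.17 (adjusted p = 0.0422, edgeR). The paralogues thus differed in opposite directions, each in 4 of 4 mice, and both calls lie close to the threshold and were lost without projection mouse 1 (adjusted p = 0.143 and 0.150), without mouse 2 (0.235 and 0.214) and without mouse 3 (0.216 and 0.149). Pde8b, with a high affinity for cAMP, had close means (34.4 ± 7.85 and 34.3 ± 6.64 CPM, interval of the log2 change from -0.48 to 0.47). The cGMP-specific genes had few counts: the photoreceptor gene Pde6a gave 8.02 ± 6.46 and 11.2 ± 6.65 CPM, and Pde9a 2.93 ± 0.777 and 6.55 ± 2.61 CPM with adjusted p = 0.169 (edgeR). Of the enzymes that degrade both messengers, calcium-activated Pde1a gave 801 ± 44.5 and 864 ± 69.5 CPM, cGMP-stimulated Pde2a 199.9 ± 43.9 and 187 ± 17.9 CPM, and neither passed. Pde10a, known from the striatum and named after its values were seen, had 37.4, 28.9, 19.9 and 47.9 CPM in Synpr-high and 50.7, 54.8, 56.3 and 60.1 CPM in Synpr-low sums. The groups did not overlap, and it passed in 5 of 19 alternatives, among them DESeq2, thinned cells and the mouse as a block (log2 change -0.80, adjusted p = 0.0335, against 0.101 without, edgeR). Pde4dip was another that passed with a block, in 3 of 19 alternatives in all. It is named for an interaction with PDE4 and is itself an anchoring protein of the centrosome and Golgi (161 ± 13.5 against 129 ± 10.03 CPM, adjusted p = 0.0353 with and 0.114 without the block, edgeR), whereas Pde6d, a carrier of prenylated proteins, stood at 80.3 ± 16.1 and 78.1 ± 3.60 CPM.

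The paralogous phosphatase inhibitors both passed, in opposite directions, with the smallest adjusted p values among the members. Ppp1r1a had 1408, 1460.0, 1607 and 1444 CPM in Synpr-high and 318, 355, 391 and 397 CPM in Synpr-low sums. Every Synpr-high sum lay far above every Synpr-low sum (2.02 ± 0.10 log2 units, adjusted p = 2.16e-06, edgeR's quasi-likelihood test, Benjamini-Hochberg adjusted). Ppp1r1b had 3.12, 8.87, 6.75 and 4.10 CPM against 63.7, 53.6, 45.7 and 42.3 CPM, a log2 change of -3.12 ± 0.32 (adjusted p = 0.000255, edgeR). Ppp1r1a was counted in every Synpr-high cell and in 95.4% of Synpr-low, marker-low cells, whereas few Synpr-high cells had a Ppp1r1b count. With every cell thinned to 20000 counts (84 shallower cells left out), 2.35% to 7.38% of Synpr-high cells of a mouse had a Ppp1r1b count, against 17.4% to 35.5% of Synpr-low, marker-low cells. Without thinning the shares were 2.65% to 12.8% and 26.3% to 40.4%. Striatal projection neurons, which are rich in Ppp1r1b, Adcy5 and Pde10a, have markers (Drd1a, Drd2, Adora2a, Rgs9, Penk, Tac1, Pdyn and Foxp1) whose sums overlapped between the classes. Of these 8 genes 7 had counts in each class, summing to 143 to 267 CPM in Synpr-high and 155 to 214 CPM in Synpr-low sums, with Adora2a at 0 in the first and Tac1 at 0 in the second. The part of such cells in the result was not tested. Without the 4 cells that had Gad1 and Gad2 counts, 9 members were called.

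Within single plates, where both classes shared the plate, the order held for most of the called members. Of 12 plates with at least 5 cells in each class, Ppp1r1a, Adcy2 and Prkar1b were higher in the Synpr-high sum in 12, Gucy1a3 in 11 and Pde4b in 10. Adcy1 was lower in 12, and Adcy9, Ppp1r1b and Pde4a in 11 each. The plate sums hold the same cells as the mouse sums that gave the calls, so they are no separate support. Of members not called, Pde10a and Prkacb were also lower in 12 plates, and Pde1a in 6. Ppp1r1a ranged from 1186 to 1738 CPM in Synpr-high and from 252 to 536 CPM in Synpr-low plate sums, with no overlap. Plates of a mouse are not independent, and a fit with sums per plate and the plate as a block called 12 members and 1638 genes in all. Those were the 9 and Prkacb, Pde10a and Pde4dip, as when the mouse was the block, which also called 12 of 40. Ppp1r1a, Ppp1r1b and Adcy9 passed in 19 of 19 alternatives. Adcy2 was lost without projection mouse 1 (adjusted p = 0.0642) and without mouse 2 (0.0748), Adcy1 without mouse 1 (0.0666), Gucy1a3 without mouse 2 (0.0786) and mouse 3 (0.0741), and Prkar1b without mouse 1 (0.0522) and mouse 3 (0.0542), in edgeR's test. With all cells thinned to 20000 counts, Adcy1 (0.0544), Pde4b (0.0509) and Pde4a (0.135) no longer passed. Without a filter on low counts Pde4b (0.0572) and Pde4a (0.0719) were lost, and Pde4a also when 2 counts of each neuronal gene were asked for (0.0717) and without plate 12 (0.105).

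The Synpr-high cells of the projection mice were largely RSC-labelled, so the comparison was also made in cells without a projection label. The RSC label stood for 52 of 88, 56 of 88 and 105 of 149 of those cells in mice 1 to 3. Of the 9 members, 5 passed among cells without a label: Ppp1r1a (2.13 log2 units), Ppp1r1b (-4.57), Adcy9 (-2.29), Adcy1 (-1.11) and Adcy2 (1.001). Over all genes, 601 passed among these cells, against 1203 with all kept cells. Gucy1a3, Prkar1b, Pde4b and Pde4a kept their signs without passing (adjusted p = 0.0829, 0.0604, 0.121 and 0.318, edgeR). Leaving the deep-layer-marker-high cells out of the Synpr-low sums kept 6 calls and took those of Adcy1 (-0.54, adjusted p = 0.0673), Pde4b (0.41, 0.151) and Pde4a (-0.60, 0.0549), in edgeR's test. Over all genes, 1196 passed there, against 1203 with those cells included. In that fit the change of Ppp1r1b shrank to -2.10 and that of Adcy2 grew to 2.41 log2 units. With the mouse as a block as well, Adcy1 (adjusted p = 0.0201) and Pde4a (0.0484) passed again in edgeR's test. Pde4b did not (0.114), and 11 members and 1962 genes passed in all.

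Deep-layer-marker-high cells were therefore set against the remaining Synpr-low cells, in the sums of 4 mice. Marker-high cells had more Ppp1r1b, Pde1a and Adcy1 and less Ppp1r1a. These are 4 of 32 members tested (12.5%), against 2.12% of all 10963 genes, 3 higher against 1.19% and 1 lower against 0.921%. Among the 4 are Ppp1r1a and Ppp1r1b, which were added to the members by name. The median log2 change was 0.01 over the members and 0.01 over all genes. The markers that made the split are not reported, and the shell list gave 856 to 1872 CPM in marker-low and 189 to 1667 CPM in marker-high sums. Inhibitory genes gave 0 to 163 CPM in marker-high, with Gad1, Slc32a1 and Pvalb at 0, and 178 to 1244 CPM in marker-low sums, without overlap, and oligodendrocyte genes 23.6 to 85.997 CPM and 60.95 to 731 CPM. The part of such cells was not tested. Striatal marker sums overlapped, at 99.8 to 183 CPM in marker-high and 154 to 259 CPM in marker-low sums. Of the 8 genes 6 had counts in each class, with Tac1 at 0 in both, Pdyn at 0 in the first and Adora2a at 0 in the second.

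Ppp1r1b had 125, 189, 156 and 191 CPM in marker-high and 37.9, 17.4, 26.3 and 20.4 CPM in marker-low sums of the blindly sampled mouse and projection mice 1 to 3. The lowest marker-high sum was above the highest marker-low sum, and the change was 2.72 ± 0.27 log2 units (adjusted p = 0.000843, edgeR's quasi-likelihood test, Benjamini-Hochberg adjusted). In cells thinned to 20000 counts, 58.3% to 83.8% of a mouse's marker-high cells had a count of it. Ppp1r1a, by contrast, fell from 397, 407, 431 and 437 CPM in marker-low to 117, 211, 240.4 and 194 CPM in marker-high sums (-1.13 ± 0.20, adjusted p = 0.0149, edgeR). Pde1a had 1498, 1302, 1355 and 1166 CPM in marker-high and 665, 714, 878 and 748 CPM in marker-low sums (0.82 ± 0.13, adjusted p = 0.00701, edgeR). All 4 marker-high sums lay above all 4 marker-low sums, although this calcium-activated enzyme had not passed between the Synpr classes as a whole. Adcy1 had 337, 446, 402 and 313 CPM against 188, 240.5, 156 and 190.4 CPM (0.95 ± 0.17, adjusted p = 0.0193, edgeR). Only Ppp1r1b passed without each mouse in turn. Ppp1r1a was lost without projection mouse 1 (adjusted p = 0.102), 2 (0.0789) or 3 (0.103), and Pde1a without mouse 1 (0.0821) or 2 (0.0546). Adcy1 was lost when any 1 of the 4 mice was left out (adjusted p from 0.052 without the blindly sampled mouse to 0.162 without mouse 2, edgeR).

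**Figure D3:**
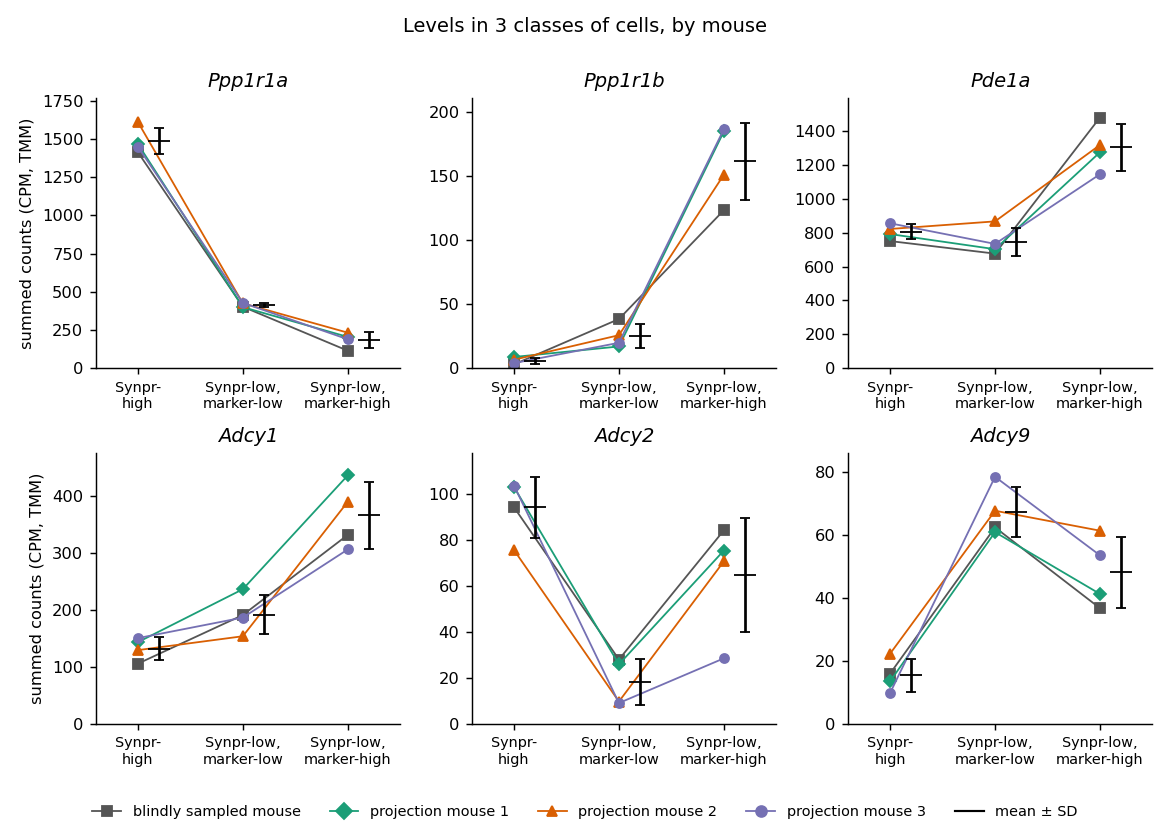
Levels (CPM, TMM-scaled over the 12 sums; each axis starts at 0) of 6 members in Synpr-high cells, in Synpr-low, marker-low cells and in Synpr-low, marker-high cells. Lines join the sums of 1 mouse and black marks give mean ± SD over 4 mice. Ppp1r1a is lower and Ppp1r1b higher at each step from left to right in every mouse, Pde1a and Adcy1 are highest in marker-high cells, Adcy2 is lowest and Adcy9 highest in the middle class.

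Laid out over the 3 classes, Ppp1r1a and Ppp1r1b ran in opposite order in every mouse. Ppp1r1a had 1414, 1468, 1611 and 1449.5 CPM in Synpr-high, 403, 401, 425 and 429 CPM in marker-low and 115, 206, 234 and 190.3 CPM in marker-high sums. Ppp1r1b had 3.13, 8.91, 6.77 and 4.12, then 38.5, 17.1, 25.9 and 19.997, then 124, 185, 151 and 187 CPM. The step from Synpr-low, marker-low to marker-high cells thus took Ppp1r1a further down and Ppp1r1b further up. Adcy2 was lowest in the middle class, where its sums of 27.96, 25.9, 9.69 and 9.03 CPM compare with 84.1, 75.4, 70.7 and 28.5 CPM in marker-high cells. That step had a log2 change of 1.87 ± 0.46 and did not pass (adjusted p = 0.0662, edgeR), but did when mice were blocked (0.00748) and in 5 of 17 alternatives in all, DESeq2 among them. Thinned shares of cells with an Adcy2 count were 44.7% to 67.8% of a mouse's Synpr-high cells, 5.37% to 20.97% of marker-low and 31.03% to 50% of marker-high cells. Adcy9 was counted in 8.05% to 16.5%, 36.6% to 50% and 24.3% to 41.4% of cells in the same order, and its step between the Synpr-low classes did not pass (-0.46 ± 0.22, adjusted p = 0.446, edgeR). Both subunits of the nitric oxide receptor were lower in marker-high cells of 4 of 4 mice without passing, Gucy1b3 with log2 changes of -0.97 ± 0.34 and Gucy1a3 of -1.99 ± 0.85 (adjusted p = 0.226 and 0.369, edgeR). Pde9a, the high-affinity cGMP enzyme, stood at 15.8 ± 7.44 CPM in marker-high and 3.97 ± 2.05 CPM in marker-low sums (SD, n = 4) and did not pass either (adjusted p = 0.131, edgeR).

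RSC-labelled and LEC-labelled cells of projection mice 1 to 3 were compared next, since the study asked whether projection targets separate along the same lines. RSC-labelled cells had more Ppp1r1a and Prkar1b and less Adcy9. These are 3 of 38 members (7.89%), against 3.83% of 13242 genes, with 2 higher against 1.93% and 1 lower against 1.9%. Among the 3 is Ppp1r1a, which was added to the members by name. Ppp1r1a had 1346, 1287 and 1484 CPM in RSC and 736, 618 and 548 CPM in LEC sums (1.11 ± 0.11 log2 units, n = 3 mice per group, adjusted p = 0.00298, edgeR's quasi-likelihood test, Benjamini-Hochberg adjusted). Adcy9 had 16.7, 24.1 and 17.1 CPM in RSC and 47.9, 66.2 and 71.9 CPM in LEC sums (-1.69 ± 0.24, adjusted p = 0.00792, edgeR). Prkar1b had 2286, 2277 and 2279 CPM against 1928, 1781 and 1684 CPM (0.34 ± 0.07, adjusted p = 0.0267, edgeR). For each of the 3 genes the labels did not overlap. Of the members called between Synpr classes, Adcy2 (1.69 ± 0.45), Pde4b (0.54 ± 0.15) and Gucy1a3 (0.95 ± 0.28) were higher in RSC sums of 3 of 3 mice and did not pass (adjusted p = 0.0796, 0.0979 and 0.111, edgeR). Adcy2 passed when mice were blocked (0.0465) and in 5 of 13 alternatives in all, DESeq2 and thinned cells among them, Gucy1a3 in 3 of 13 and Pde4b in 1 of 13. Ppp1r1b, at 14.1, 6.93 and 4.69 CPM in RSC and 12.2, 24.8 and 20.1 CPM in LEC sums, overlapped between labels. Its Unlabeled sums were higher, at 88.6, 51.2 and 55.3 CPM, and Unlabeled cells of mice 1 to 3 included 34, 17 and 22 of the marker-high cells, against 2, 2 and 7 of the LEC-labelled. Adcy1 stood at 169 ± 0.959 and 185 ± 41.8 CPM (SD, n = 3). Without projection mouse 2 or without projection mouse 3, none of the 3 calls remained, with adjusted p from 0.0617 for Ppp1r1a to 0.264 for Prkar1b (edgeR).

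The labels differ in Synpr class, with 81.25%, 80.0% and 92.9% Synpr-high cells among RSC-labelled and 22.5%, 14.5% and 12.3% among LEC-labelled cells of mice 1 to 3. The labels were therefore compared within each class. Within Synpr-high cells, no member of 37 passed, nor did any of 12410 genes (0%), with 1 member at an unadjusted p under 0.05 and 0 members and 28 genes called by DESeq2. The LEC sums of this comparison rest on only 18, 11 and 16 cells of mice 1 to 3, against 52, 56 and 105 RSC-labelled cells. A lack of calls is therefore not evidence that the labels are alike. Ppp1r1a there had 1468, 1470.2 and 1532 CPM in RSC and 1534, 1738 and 1288 CPM in LEC sums, and the log2 change of -0.03 ± 0.11 had an interval from -0.27 to 0.21. Adcy9 had 17.5, 19.8 and 10.1 CPM and 9.21, 37.2 and 9.87 CPM, with an interval of the log2 change from -1.76 to 1.31, which includes the value found over all labelled cells. The member with an unadjusted p under 0.05 was Adcy1, at 161, 152 and 167 CPM in RSC and 119, 91.97 and 122 CPM in LEC sums (0.53 ± 0.21).

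Within Synpr-low cells, a contrast added after the data were seen, no member of 37 passed, against 0.193% of the 12410 genes (0.145% higher and 0.0483% lower), with 4 members at an unadjusted p under 0.05. Ppp1r1a came closest: it had 551, 539 and 603 CPM in RSC and 387, 380.3 and 405 CPM in LEC sums, higher in 3 of 3 mice without overlap (0.53 ± 0.11, adjusted p = 0.0982, edgeR, and 0.000556 in DESeq2). The same sums differed in their markers: the core list gave 955 to 1988 CPM in RSC and 236 to 508 CPM in LEC sums, the shell list 818 to 909.9 CPM and 1219 to 2155 CPM, both without overlap, inhibitory genes 25.4 to 314 CPM and 570.0 to 1211 CPM, and oligodendrocyte genes 46.8 to 5971 CPM and 114 to 240.3 CPM. Of the inhibitory genes, Gad1 and Gad2 had no counts under either label, Sst none in LEC sums, and Slc32a1 and Pvalb none in RSC sums. The part of these markers in the difference was not tested. The RSC sums rest on only 12, 14 and 8 cells of mice 1 to 3. Adcy9 had 11.97, 38.8 and 133 CPM in these RSC sums and 64.3, 72.1 and 82.95 CPM in the LEC sums, so that the RSC sum was the higher one in mouse 3 and the lower one in mice 1 and 2. Prkar1b had 2113, 1672 and 1964 CPM and 1822, 1689.9 and 1569 CPM and overlapped between labels. The difference between the Synpr contrasts of RSC-labelled and LEC-labelled cells was tested itself, and no member of 37 passed, against 0.0645% of genes (0.0242% higher and 0.0403% lower), with 2 members, Ppp1r1a and Prkg2, at an unadjusted p under 0.05. For Ppp1r1a this difference was -0.56 ± 0.16 log2 units (adjusted p = 0.307 in edgeR and 0.0241 in DESeq2, which called this 1 member).

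**Figure D4:**
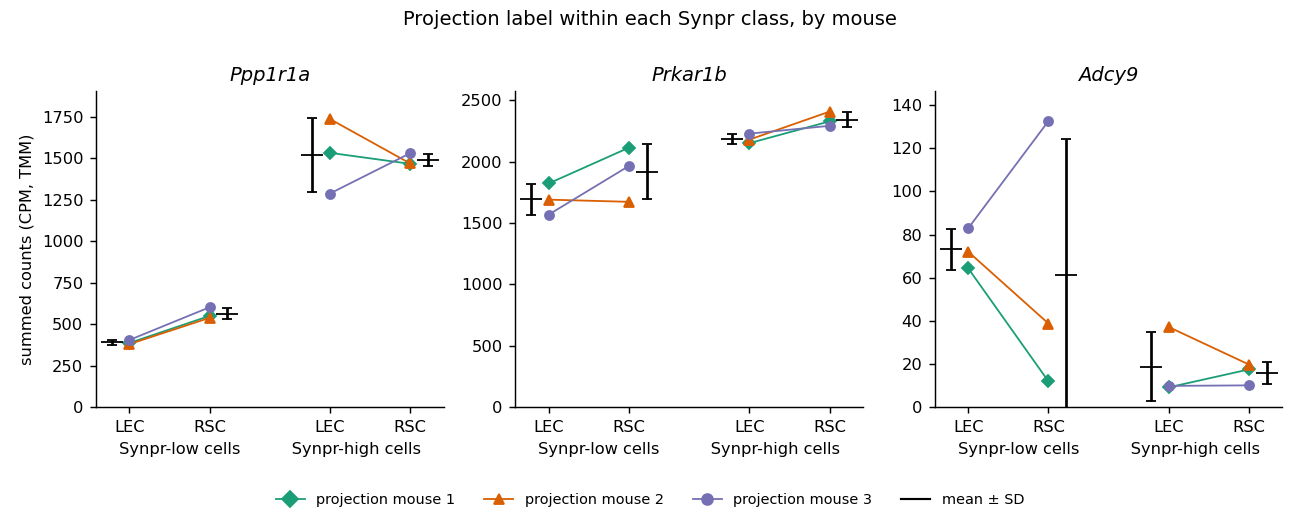
Levels (CPM, TMM-scaled over the 12 sums; each axis starts at 0) of the 3 members called between labels, in LEC and RSC sums of Synpr-low (left pair) and Synpr-high cells (right pair). Lines join the sums of 1 mouse and black marks give mean ± SD over 3 mice, with the lower bar of Adcy9 in Synpr-low RSC sums cut at 0. The pairs of Ppp1r1a are far apart between classes, with RSC above LEC in 3 of 3 mice in Synpr-low cells and in 1 of 3 in Synpr-high cells.

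Plate 12 alone held both labels, with 34 RSC-labelled and 44 LEC-labelled kept cells of projection mouse 3. There Ppp1r1a had 1544 CPM in RSC and 672 CPM in LEC cells, Adcy9 24.9 and 77.3 CPM, and Prkar1b 2287 and 1698 CPM. The direction in each was that of the sums of 3 mice. This is 1 plate of 1 mouse, without a replicate or a test.

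A list of 45 other genes of the pathway was read beside the enzymes. Between Synpr classes, 35 were tested, and 4 were higher and 3 lower in Synpr-high cells (20%, against the 8.82% of all genes). The higher genes were Gnai1 (0.54 ± 0.11), an inhibitory G protein subunit, Gnas (0.39 ± 0.10), the stimulatory one, Akap5 (1.10 ± 0.25), which anchors PKA at synapses, and the CREB relative Crem (0.73 ± 0.18), with adjusted p from 0.0126 to 0.0344 (edgeR). The lower genes were Adcyap1, which encodes the peptide PACAP that stimulates adenylyl cyclase, its receptor Adcyap1r1 (-1.08 ± 0.28) and Cap2 (-0.75 ± 0.16), a cyclase-associated actin regulator (adjusted p = 0.00125, 0.0417 and 0.0134, edgeR). Adcyap1 had 0.312, 0.109, 0.163 and 0.468 CPM in Synpr-high and 4.25, 17.5, 13.4 and 5.41 CPM in Synpr-low sums. It was counted in the marker-low cells of each mouse (5.95, 22.9, 16.2 and 6.36 CPM) and was near 0 in marker-high cells, with 3 counts in all against 791 (adjusted p = 0.0114, edgeR). The PKA-anchoring gene Akap7 was instead higher in marker-high cells, at 37.2, 74.1, 37.9 and 46.7 CPM against 4.09, 5.55, 5.28 and 6.2 CPM (3.20 ± 0.33, adjusted p = 0.00086, edgeR). These were the 2 calls of 34 genes in that comparison (5.88%, against 2.12% of all genes). Between labels, 2 of 35 passed (5.71%, against 3.83% of all genes), Akap5 higher (0.93 ± 0.17) and Adcyap1 lower in RSC cells, at 0.231, 0 and 0.153 CPM against 14.9, 11.4 and 6.45 CPM (adjusted p = 0.0229 and 0.00568, edgeR). Within Synpr-high cells none of 35 passed, with 4 at an unadjusted p under 0.05. In the test of the difference between Synpr contrasts only Nos1, the neuronal nitric oxide synthase, passed (adjusted p = 0.0353, edgeR), a call that held in 4 of 14 alternatives and not with the mouse as a block (0.0577).

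Some of these genes share exon sequence with neighbours. In GENCODE M21, exons of Adcy3, Pde12 and Pde6h overlap a protein-coding gene of the opposite strand (Cenpo, Arf4 and Arhgdib). Those of Adcy2, Adcy6, Pde3a, Pde5a, Pde7a, Pde8b, Pde9a and Ppp1r1b overlap another transcript of the opposite strand (Gm35161 for Adcy2, 1700003D09Rik for Ppp1r1b). Exons of Prkar1b (with Gm15672) and Pde2a (with Gm45837) overlap a transcript of the same strand, and those of Gucy1a3, Pde4dip and Pde12 a microRNA gene. The use of strand in counting is not given in the sources used here, so that counts of these neighbours could be among those of the named genes. Exons of no member overlap those of another.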

How the data were processed

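Counts of single cells from 4 mice were analysed, with the mouse as the replicate. The authors prepared barcoded cDNA primed at the 3′ end, aligned reads with STAR (genome build NCBIM37 per the labels) and deposited raw gene counts per cell, used here as deposited. Whether unique molecular identifiers were collapsed, the annotation and the use of strand are not given in the sources used here. A count may therefore be an amplified read and not a molecule, which matters most for members counted in few cells. The tables hold 23305 entries for the projection mice and 16861 for the blindly sampled mouse, any spike-ins included. Spike-ins were left out of the 23427 genes used. A gene absent from 1 table was given 0 counts there.

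Members, lists and tests were chosen with earlier results of these data known. The text names each member past the threshold, the 2 most abundant members of each role by mean CPM, and Ppp1r1a and Ppp1r1b. Adcy5, Adcy6 and Pde10a, and the members given only by counts, were named after their values were seen. Counts were summed per mouse and class (at least 5 cells) and tested with edgeR 4.0.16 in R 4.3.3 (quasi-likelihood test, TMM, filterByExpr, Benjamini-Hochberg over all genes tested, threshold 0.05), without a block. The test was also run on simulated data, in which each sum was drawn independently, without an effect of the mouse. That run cannot show how the test behaves when sums of 1 mouse correlate. CPM are scaled by the TMM factors of each fit, so a class has slightly different values in different comparisons. Shares of cells were compared after thinning each cell to 20000 counts, and depth sets what low members can show. One gene of the striatal marker list is not reported here and was left out of its sums. Doublets were not called, and Gad1 and Gad2 were counted together in 4 kept cells. Alternatives were DESeq2 1.42.0, RLE factors, other limits and filters, thinned cells, sums per plate, subsets of cells, leaving out each mouse, and the mouse as a replicate block. Sums of 1 mouse come from the same animal, so the block is a true pairing. Deviations from the class means correlated within a mouse with a median of 0.232 for the Synpr classes, 0.0590 for the labels and 0.169 for the deep-layer split, and between mice with -0.113, -0.0342 and -0.0704. Because deviations from a class mean cancel over the mice, the values between mice follow from those within a mouse and are no separate baseline. Promoters are from RefSeq (GRCm38.p6), a different build from that of the files.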

Additional observations from a re-analysis of the deposited data

Results flagged for a closer look

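Among 40 sets of 4 sums examined, 1 held a mouse far from the others, and chance alone flags about 1 in 20. Gucy1a3, the alpha subunit of the nitric oxide receptor, had 24.7 CPM in the deep-layer-marker-high sum of projection mouse 1, against 0, 2.10 and 2.44 CPM in the blindly sampled mouse and projection mice 2 and 3. The gap to the nearest mouse was 0.901 of the whole range, above Dixon's critical value for 4 samples. Gucy1a3 was below the marker-low sum of the same mouse in 4 of 4 mice.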

How the results depend on the processing

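The number of members called between Synpr classes was 9. It was 5 in unlabelled cells and 4 to 9 with a mouse left out. Between projection labels it was 3, against 6 with DESeq2, 7 with thinned cells, 0 in Synpr-low cells alone and 0 to 5 with a mouse left out. For the difference between Synpr contrasts it was 0, and 1 with DESeq2. For the deep-layer split it was 4, against 7 with DESeq2 and 1 to 3 with a mouse left out. No member called in a comparison reversed its direction there under any alternative run. Synpr-high cells alone were a comparison of their own and not among these alternatives. There the change of Ppp1r1a between labels was slightly negative, with an interval on both sides of 0. The cause of these shifts was not tested, although a left-out mouse means fewer samples.

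With the mouse as a replicate block, the members called were 12 between Synpr classes, 4 between labels, 0 within Synpr-high cells, 0 for the difference between Synpr contrasts and 5 for the deep-layer split. The added calls were Pde10a, Pde4dip and Prkacb, then Adcy2, and Adcy2 again.

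Over all genes, the 1203 calls between Synpr classes became 1993 with DESeq2, 1995 with the block, 601 in unlabelled cells and 545 to 657 with a projection mouse left out. The 507 between labels became 1233 with DESeq2, 771 with thinned cells, 24 in Synpr-low cells alone and 21 to 46 without projection mouse 2 or 3. The 232 of the deep-layer split became 754 with DESeq2, 424 with the block, 111 at a marker limit of 100 CPM and 39 to 194 with a mouse left out. Within Synpr-high cells, 0 became 28 with DESeq2 and 5 without a filter. For the difference between Synpr contrasts, 8 became 170 with DESeq2, 24 without a filter and 1 with the block.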
